A study of Mus musculus with 12 samples.

Results

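The genes of 6 receptors of the signaling lymphocyte activation molecule (SLAM) family, *Slamf1*, *Slamf6*, *Slamf7*, *Ly9*, *Cd48* and *Cd84*, were followed in RNA sequencing counts of mouse follicular B cells, among 13574 genes counted in all. The 6 genes were selected on their levels in these same libraries, in WT and GPR174-deficient (KO) cells at both times. Their levels and differences are therefore given as descriptions, with no p-value, and counts of members past the threshold support nothing by themselves. All 6 had a row in both tables and passed the filter on low counts in every comparison.

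Splenic follicular B cells, labelled CD21/35- CD23+, had been sorted from adult male mice of genotype Gpr174+/Y (WT) or Gpr174-/Y (KO). In the KO allele the only coding exon of the X-linked receptor gene *Gpr174* is replaced by tdTomato, and the allele is not restricted to B cells. Cells were taken at 0 h, directly after the sort, or after 4 h in complete RPMI medium with serum, to which no stimulus was added. Each of the 4 groups held 3 libraries. The 0 h groups are called fresh WT and fresh KO and the 4 h groups cultured WT and cultured KO, and the comparisons ask how deficiency in GPR174 and time in culture change gene expression.

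SLAM family receptors are immunoglobulin superfamily proteins on the surface of hematopoietic cells. Most bind the same receptor on a neighbouring cell, while CD48 is held in the membrane by a lipid anchor and is bound by CD244 and CD2. The cytoplasmic tails of the other receptors followed here carry tyrosine motifs that recruit the adaptors SAP and EAT-2. Where these adaptors are lacking, the motifs recruit phosphatases such as SHP-1, SHP-2 and SHIP-1. On B cells the family is known for roles in adhesion to T cells, germinal center responses and the setting of tolerance.

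The 6 genes lie in 1 cluster of 364.5 kb on chromosome 1 (GRCm38/mm10, GENCODE M21). *Ly9*, the gene of CD229, runs from 171588624 to 171607410 on the minus strand and *Slamf7*, the gene of CRACC, from 171632403 to 171653035 on the same strand. *Cd48* follows from 171682009 to 171705258, *Slamf1*, the gene of CD150, from 171767127 to 171801184, *Cd84* from 171839697 to 171890718 and *Slamf6*, the gene of Ly108, from 171917515 to 171953170, all on the plus strand. A promoter window of 300 bases, 250 before and 50 after a RefSeq start (GRCm38.p6), was found for 5 of the 6 genes, that of *Slamf7* at a start inside the annotated gene. The windows of *Slamf1* (chr1:171766882-171767181, plus strand) and *Cd84* (chr1:171839447-171839746, plus strand) are shown because these members differed most between genotypes after culture. Capitals mark a motif that was searched for.
Slamf1: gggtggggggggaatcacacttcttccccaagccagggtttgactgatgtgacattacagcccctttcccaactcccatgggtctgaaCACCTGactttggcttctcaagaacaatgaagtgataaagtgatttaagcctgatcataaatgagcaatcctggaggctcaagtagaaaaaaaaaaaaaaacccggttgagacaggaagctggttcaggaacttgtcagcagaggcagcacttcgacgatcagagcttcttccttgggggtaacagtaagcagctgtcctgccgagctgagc
Cd84: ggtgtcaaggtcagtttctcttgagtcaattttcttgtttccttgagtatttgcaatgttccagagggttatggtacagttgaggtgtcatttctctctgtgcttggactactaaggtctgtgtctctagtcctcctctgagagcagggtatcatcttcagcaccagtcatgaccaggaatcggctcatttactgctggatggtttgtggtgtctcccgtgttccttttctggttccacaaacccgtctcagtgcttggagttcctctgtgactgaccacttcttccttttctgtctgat
The motifs searched on both strands were the cAMP response element TGACGTCA, its half-site TGACG, which the full element contains, the octamer ATGCAAAT and the E-box CAGGTG. Among the 5 windows the search found 1 match, the E-box at base 89 of the *Slamf1* window, on the minus strand, and none in the windows of *Cd84*, *Cd48*, *Slamf6* and *Slamf7*. Of 32851 promoter windows of this length, 20.2% held the E-box, 20.8% the half-site, 1.79% the full element and 1.74% the octamer. A match is a run of letters and was not tested as a binding site.

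Libraries held 6098941 to 11618787 counts, and levels are CPM, counts scaled to a fixed library size after adjustment by the trimmed mean of M values (TMM). *Gpr174* itself was at 149.4 to 156.8 CPM in fresh WT, 73.4 to 76.7 in fresh KO, 152.5 to 168.9 in cultured WT and 104.7 to 118.2 in cultured KO, so WT libraries were above KO libraries at both times, while reads of the gene remained in KO. Markers of B cells had a row for 8 of 8 genes and summed to 5922 to 9819 CPM. Markers of T cells (9 of 9 genes) summed to 5.40 to 18.6 CPM, of NK cells (6 of 6) to 3.29 to 14.3, of dendritic cells (5 of 5) to 3.55 to 14.1, and of platelets (3 of 5 with a row in both tables, without *Gp1bb* and *Pf4*) to 2.00 to 6.37. Plasma cell markers (5 of 6 symbols) summed to 432.5 to 570.2 CPM and erythroid markers (2 of 4, with no row for *Hba-a1* and *Hbb-b1*) to 40.4 to 125.1. *Irf4* made up most of the plasma cell sum, with group means of 333.5 to 434.5 CPM. The group means of *Xbp1* were 45.2 to 74.9, of *Igj* 21.6 to 39.0, of *Sdc1* 2.44 to 24.3 and of *Prdm1* 4.77 to 9.27. In bulk RNA, fewer cells of a type and less RNA per cell cannot be told apart.

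Before culture the log2 differences between genotypes were at most 0.11 in size for the 6 receptor genes. *Slamf1* was at 81.0, 92.0 and 85.2 CPM in the fresh WT libraries and at 90.1, 97.5 and 78.1 in fresh KO. *Cd84* was at 285.0, 337.7 and 301.1 CPM in fresh WT and at 309.8, 315.3 and 290.1 in fresh KO. For both genes the genotypes overlapped. The log2 difference, KO over WT, was 0.05 ± 0.08 (SE, n = 3 per group) for *Slamf1* and 0.00 ± 0.06 for *Cd84*. It was 0.11 ± 0.06 for *Slamf6*, -0.01 ± 0.06 for *Slamf7*, -0.03 ± 0.08 for *Ly9* and 0.03 ± 0.06 for *Cd48*. Of the 6 members 0 were called at an adjusted p under 0.05 by edgeR, 0 had an unadjusted p under 0.05 and 0 were called by DESeq2, beside 0.987% of all genes called at 0 h. The WT and KO libraries of 1 member, *Slamf6*, did not overlap at 0 h, where 18.3% of all genes did not. That member was at 141.8, 141.5 and 134.3 CPM in fresh WT and at 142.8, 154.4 and 150.3 in fresh KO, a gap smaller than the spread within KO. The sign for *Slamf1*, *Slamf7*, *Ly9*, *Cd48* and *Cd84* turned when 1 library was left out.

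After 4 h of culture all 6 genes were higher in every KO library than in every WT library. *Slamf1* differed most. It was at 9.35, 12.03 and 9.48 CPM in the cultured WT libraries (58, 77 and 90 reads) and at 33.0, 37.7 and 30.6 CPM in cultured KO (251, 316 and 225 reads). The lowest KO library was thus far above the highest WT library, and the log2 difference was 1.72 ± 0.14. *Cd84*, a receptor that binds itself between cells, was at 146.2, 173.9 and 140.8 CPM in cultured WT and at 257.9, 225.3 and 241.0 in cultured KO, with a log2 difference of 0.65 ± 0.08.

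*Slamf7* and *Slamf6*, also self-binding receptors, had smaller differences. *Slamf7* was at 138.8, 137.4 and 135.4 CPM in cultured WT and at 195.4, 192.7 and 198.9 in cultured KO, a log2 difference of 0.51 ± 0.06. *Slamf6* was at 117.2, 138.9 and 126.0 CPM in cultured WT and at 185.7, 170.2 and 172.2 in cultured KO, a log2 difference of 0.47 ± 0.07. The *Slamf7* libraries lay close together within each genotype, whereas those of *Slamf6* spread more widely, with WT replicate 2 the highest of its group.

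*Cd48* and *Ly9* stood at the low end of the family. *Cd48*, the lipid-anchored member, was at 106.1, 104.4 and 111.7 CPM in cultured WT and at 127.9, 129.9 and 134.3 in cultured KO, a log2 difference of 0.28 ± 0.06. *Ly9* was at 99.5, 89.9 and 92.7 CPM in cultured WT and at 108.7, 100.9 and 106.1 in cultured KO, and its difference of 0.16 ± 0.07 did not pass the threshold. The gap between the *Ly9* groups was the narrowest of the 6, with 99.5 CPM in the highest WT and 100.9 in the lowest KO library.

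Of the 6 members 5 were called at 4 h, all higher in KO, where 10.9% of all genes tested were called and 5.67% were called higher in KO. The groups of 6 of 6 members did not overlap, beside 27.9% of all genes. The members' median log2 difference was 0.49 against 0.00 for all genes tested. These genes were selected on this contrast, so nothing is read from those counts. The share of all genes depended on the libraries, with 776 genes called without KO 4 h replicate 1 and 1212 with all libraries.

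**Figure D1:**
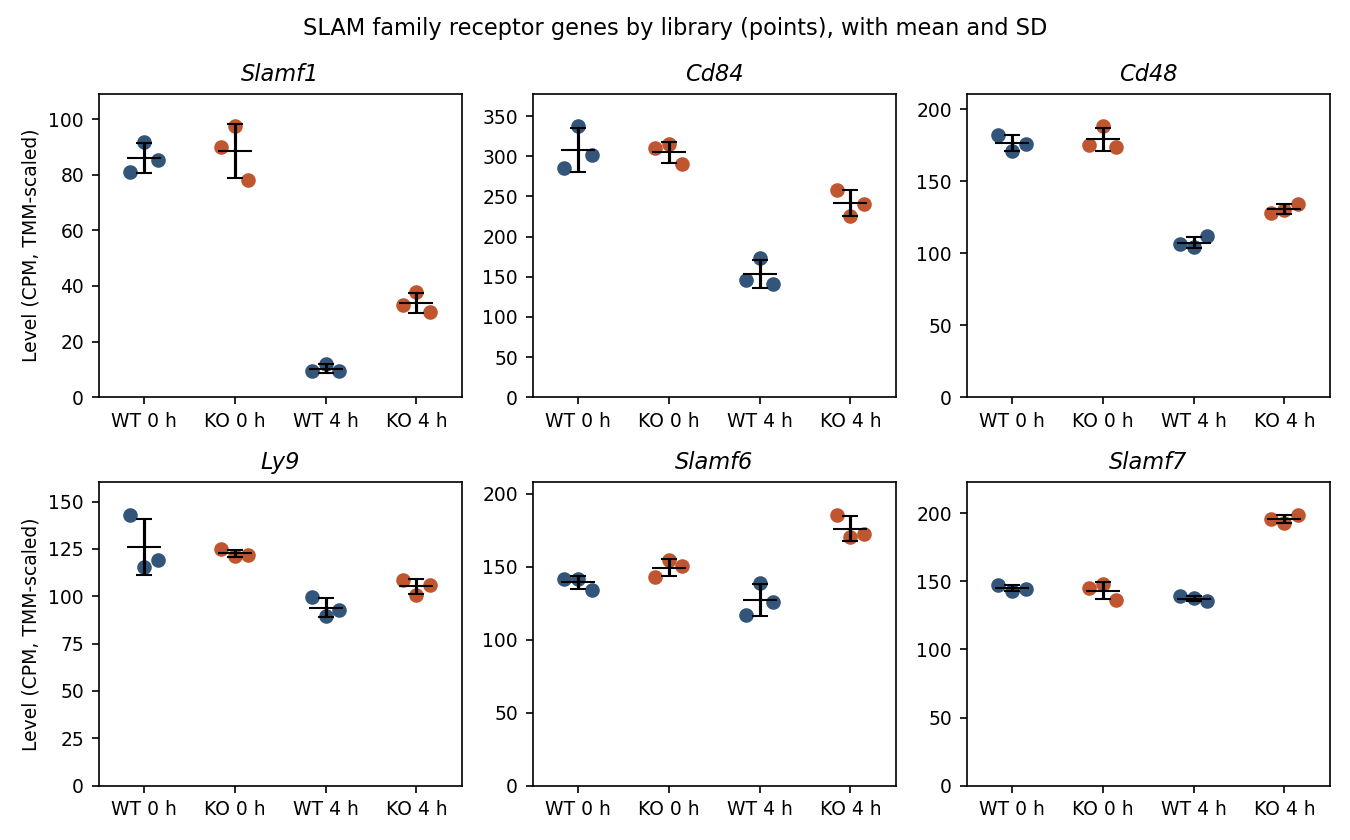
Level of each SLAM family gene (y axis, CPM on TMM-scaled library sizes) in the 12 libraries by group (x axis, with 0 h for fresh and 4 h for cultured cells), with WT in blue and KO in orange. Points are libraries, the long horizontal line is the group mean and the bars are the SD (n = 3). At 0 h the genotypes lie at like heights, and at 4 h all KO points lie above all WT points in each panel.

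Culture lowered 4 of the 6 genes in WT cells and the changes of *Slamf6* and *Slamf7* were not called. In WT, *Slamf1* fell from 86.0 ± 5.52 CPM (SD, n = 3) at 0 h to 10.3 ± 1.51 at 4 h. This left 11.9% of the 0 h level, with bounds of 10.1% and 14.02% at 2 SE. *Cd84* fell from 307.9 ± 27.0 to 153.7 ± 17.8 CPM, to 49.8% of its 0 h level. *Cd48* fell from 176.4 ± 5.50 to 107.4 ± 3.83 CPM, to 61.0%, and *Ly9* from 126.0 ± 14.97 to 94.0 ± 4.94 CPM, to 74.6%. *Slamf7* stood at 144.9 ± 2.23 and 137.2 ± 1.71 CPM and *Slamf6* at 139.2 ± 4.22 and 127.4 ± 10.9 CPM, and neither change was called.

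In KO cells these 4 genes also fell over culture, and the other 2 rose. *Slamf1* fell from 88.6 ± 9.81 to 33.8 ± 3.65 CPM, to 38.2% of its 0 h level, with bounds of 33.3% and 43.9%. *Cd84* fell from 305.1 ± 13.2 to 241.4 ± 16.3 CPM, to 79.1%, and *Cd48* from 179.3 ± 7.95 to 130.7 ± 3.27 CPM, to 72.9%. *Ly9* went from 122.7 ± 1.99 to 105.2 ± 3.96 CPM, to 85.7%, a call that was lost when any 1 of the 6 KO libraries was left out. *Slamf7* rose from 143.0 ± 6.13 to 195.7 ± 3.11 CPM, to 136.8%, and *Slamf6* from 149.2 ± 5.88 to 176.0 ± 8.44 CPM, to 118.0%. The rise of *Slamf6* was no longer called without KO 0 h replicate 1 (0.21 on the log2 scale) or without KO 4 h replicate 1 (0.20), against 0.24 with all libraries.

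Of all genes tested, 33.1% were called for culture in WT (15.1% raised and 18.0% lowered) and 23.3% in KO (10.3% raised and 13.0% lowered). Scaled by library totals, 3003 genes were raised and 1500 lowered in WT where TMM gave 1749 and 2079, and 2168 and 1102 in KO where TMM gave 1193 and 1504. That scaling moved the median of all genes from 0.01 to 0.11 in WT on the log2 scale. Under it the WT change of *Slamf7* was 0.03 in place of -0.08. The 0 h and 4 h libraries did not overlap for 5 members in WT, all but *Slamf6*, and for 6 in KO, beside 40.9% and 41.9% of all genes. The median culture change of the members was -0.57 in WT and -0.28 in KO on the log2 scale.

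The estimated change over culture was less negative, or more positive, in KO than in WT for each of the 6 genes. The difference of the changes, KO minus WT on the log2 scale, was 1.69 ± 0.16 for *Slamf1* (-1.39 ± 0.10 in KO and -3.07 ± 0.12 in WT). It was 0.67 ± 0.11 for *Cd84*, from -0.34 ± 0.08 in KO and -1.01 ± 0.08 in WT. It was 0.53 ± 0.08 for *Slamf7*, from 0.45 ± 0.05 and -0.08 ± 0.05, and 0.37 ± 0.09 for *Slamf6*, from 0.24 ± 0.07 and -0.13 ± 0.07. Those 4 genes were called for the interaction. *Cd48*, at 0.26 ± 0.08, and *Ly9*, at 0.20 ± 0.11, were not. Of all genes tested 6.39% were called, 3.94% with a positive and 2.45% with a negative interaction. The interaction of *Slamf6* was no longer called without KO 0 h replicate 1 (0.34) or KO 4 h replicate 1 (0.33), and that of *Cd48* was called without KO 0 h replicate 2 (0.29). The interaction uses the 0 h and 4 h libraries of both genotypes, so it shares libraries with the genotype difference at 4 h and is no second observation of it.

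**Figure D2:**
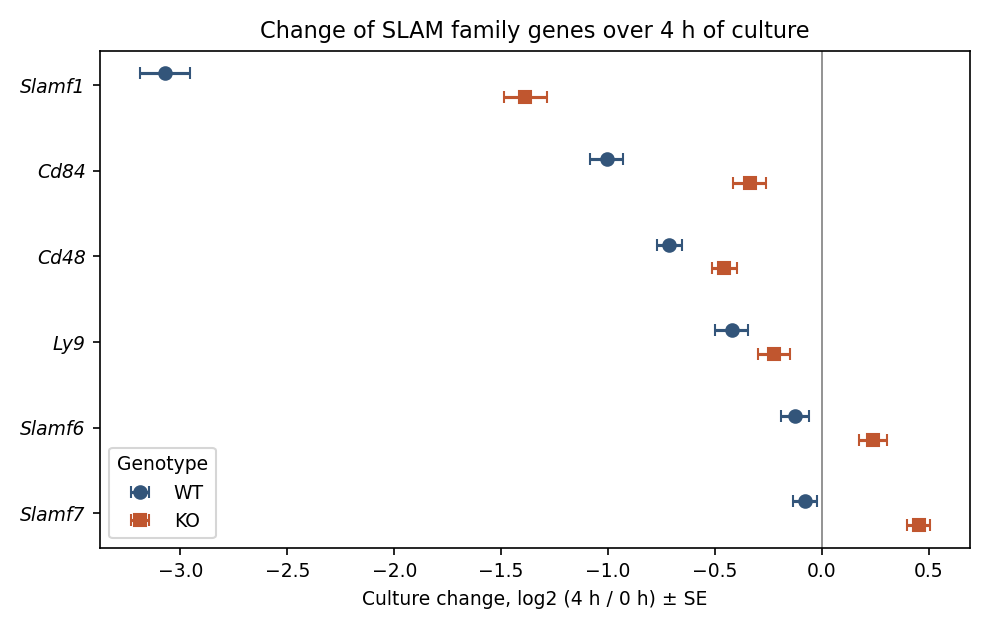
Culture change of each SLAM family gene (x axis, log2 of 4 h over 0 h) in WT (blue circles) and KO (orange squares). Bars are 1 SE, derived from the edgeR F statistic. The KO value is to the right of the WT value for each gene, with the widest gap for Slamf1 (-3.07 in WT and -1.39 in KO), and only the KO values of Slamf6 and Slamf7 lie to the right of 0.

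Marker levels of B cell subsets also differed between these groups. The 8 B cell markers, 2 of which (*Cr2*, the gene of CD21/35, and *Fcer2a*, the gene of CD23) encode the proteins used in the sort, summed to 5922 to 6140 CPM in cultured WT and 7385 to 7620 in cultured KO. At 0 h they summed to 9386 to 9819 in WT and 8898 to 9422 in KO. Marginal zone B cell markers (6 of 6 genes, among them *Cr2*) summed to 1221 to 1299 CPM in fresh WT, 1071 to 1254 in fresh KO, 243.0 to 287.4 in cultured WT and 380.2 to 428.1 in cultured KO. *Cr2* made up most of this sum, with means of 1069 CPM in fresh WT, 960.0 in fresh KO, 158.7 in cultured WT and 299.4 in cultured KO, although the label of the sort was CD21/35-. Markers of germinal center and proliferating B cells (6 of 6) summed to 342.2 to 474.8 CPM in fresh WT, 564.8 to 757.8 in fresh KO, 218.9 to 288.6 in cultured WT and 358.1 to 466.7 in cultured KO. Without *Cr2*, the other 5 marginal zone markers summed to 106.5 to 114.0 CPM in cultured WT and 104.8 to 113.0 in cultured KO, ranges that overlapped. At 0 h these 5 summed to 174.9 to 186.8 CPM in WT and 190.1 to 199.2 in KO. At 4 h the higher sum of the full marginal zone list in KO went with *Cr2*, while the other 5 markers differed in both directions. *Cd1d1* (means of 16.9 CPM in cultured WT and 23.1 in cultured KO), *Myof* (10.5 and 14.3) and *Cd9* (3.78 and 4.43) were higher in KO. *Dtx1* (75.1 and 64.6) and *S1pr3* (2.89 and 2.43) were lower in KO. Over culture the marginal zone, B cell and germinal center sums all went down in both genotypes. So did *Slamf1*, *Cd84*, *Cd48* and *Ly9*, while *Slamf6* and *Slamf7* had no called change in WT and rose in KO. Within the marginal zone list *Cd9* rose, from means of 1.91 to 3.78 CPM in WT and from 2.20 to 4.43 in KO. The sums of the germinal center and proliferation list were higher in KO at both times, but at 0 h its genes parted. *Bcl6* was lower in KO (means of 226.4 CPM in fresh WT and 210.0 in fresh KO). The other markers of that list were higher, with *Mki67* at 128.0 and 298.8. At 4 h *Bcl6* was higher in KO as well (126.6 in cultured WT and 191.0 in cultured KO). The part of these marker levels in the members' differences was not tested.

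Compared per kilobase of exon, *Cd48* was the most abundant of the 6 genes in every group and *Slamf6* or *Slamf1* the least. In fresh WT, *Cd48* was at 148.3 ± 4.63 CPM per kb (SD, n = 3), *Cd84* at 49.1 ± 4.31, *Ly9* at 46.0 ± 5.47, *Slamf1* at 32.0 ± 2.05, *Slamf7* at 31.7 ± 0.49 and *Slamf6* at 18.9 ± 0.57. *Cd84* overlapped with *Ly9*, and *Slamf1* with *Slamf7*. The order was the same in fresh KO, from 150.8 CPM per kb for *Cd48* to 20.3 for *Slamf6*, where *Slamf1* again overlapped with *Slamf7*.

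After culture the order of the middle members parted. In cultured WT, *Ly9* at 34.3 CPM per kb and *Slamf7* at 30.0 stood above *Cd84* at 24.5, and *Slamf1* was last at 3.82, under *Slamf6* at 17.3. In cultured KO, *Slamf7* was second at 42.8, ahead of *Cd84* at 38.5 and *Ly9* at 38.4, which overlapped, and *Slamf1* was last at 12.5. Lengths were the union of annotated exons, from 1.19 kb for *Cd48* to 7.37 kb for *Slamf6*, and the transcripts B cells use were not measured, so an order between genes is less certain than a difference within a gene.

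Profiles were compared as the root mean square (RMS) difference between the genes' mean-centred log2 CPM over the 12 libraries, where 0 would be the same profile. Within the family *Slamf6* and *Slamf7* were the closest pair, at 0.11, followed by *Ly9* and *Cd48* at 0.16 and *Cd48* and *Cd84* at 0.18. *Slamf1* was the farthest from the others, at 0.86 to 1.28. Over all genes tested, the gene nearest to *Cd48* was *Map4k1* (0.035), a kinase of hematopoietic cells, at means of 364.0 CPM in fresh WT, 372.6 in fresh KO, 225.5 in cultured WT and 276.3 in cultured KO. The gene nearest to *Cd84* was *Zfp318* (0.068), at 799.5, 818.9, 435.1 and 669.9 CPM in the same order. *Zfp318* is required for the splicing that gives IgD in mature B cells. *Slamf7* had the transcriptional repressor *Bach2* among its 3 nearest genes (0.071), at 814.6, 802.0, 791.0 and 1115 CPM. *B3gntl1* was nearest to *Slamf6* (0.055) and *Mylip* to *Ly9* (0.069). No gene came as near to *Slamf1*, whose closest were *9030404E10Rik* (0.26), *Fam55d* (0.28) and *Tmem154* (0.30). The latter 2 went from means of 132.6 and 59.4 CPM in fresh WT to 22.9 and 7.63 in cultured WT and 45.7 and 15.9 in cultured KO.

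The genes around the cluster were examined next, since the 6 members are neighbours. Of 33 other genes with a row within 500 kb on either side, 28 were tested for genotype. At 0 h, where edgeR called 0.987% of all genes, 0 of the 28 were called by edgeR or by DESeq2. An unadjusted p under 0.05 was found for 2 of them. At 4 h, where 10.9% of all genes were called, 1 neighbour was called, *Pfdn2*, a prefoldin subunit, which was lower in KO by 0.32 ± 0.09 on the log2 scale (edgeR adjusted p = 0.0275). DESeq2 called 0 of them. That call was also lost without WT 4 h replicate 1 and without any 1 of the cultured KO libraries, while 3 neighbours were called without WT 4 h replicate 2. The median log2 difference of the neighbours at 4 h was 0.02 and their values ran from -0.43 to 0.63. Of 30 neighbours tested for culture, 9 were called in WT (4 raised and 5 lowered), beside 33.1% of all genes, and 5 in KO (4 raised and 1 lowered), beside 23.3%. For the interaction, called for 6.39% of all genes, 1 neighbour was called, *Pex19*, a peroxisome assembly factor, at 0.42 ± 0.12 (edgeR adjusted p = 0.0481), and this call was lost without 10 of the 12 libraries in turn, WT 0 h replicate 3 and WT 4 h replicate 2 excepted. DESeq2 called 0 for the interaction.

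*Cd244*, which sits just before *Ly9* and encodes another SLAM family receptor, a ligand of CD48, was counted at 134 reads over the 3 libraries of fresh WT, 92 in fresh KO, 75 in cultured WT and 113 in cultured KO. At this depth its 4 h difference of 0.52 ± 0.28 was not told from 0 (edgeR adjusted p = 0.293).

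**Figure D3:**
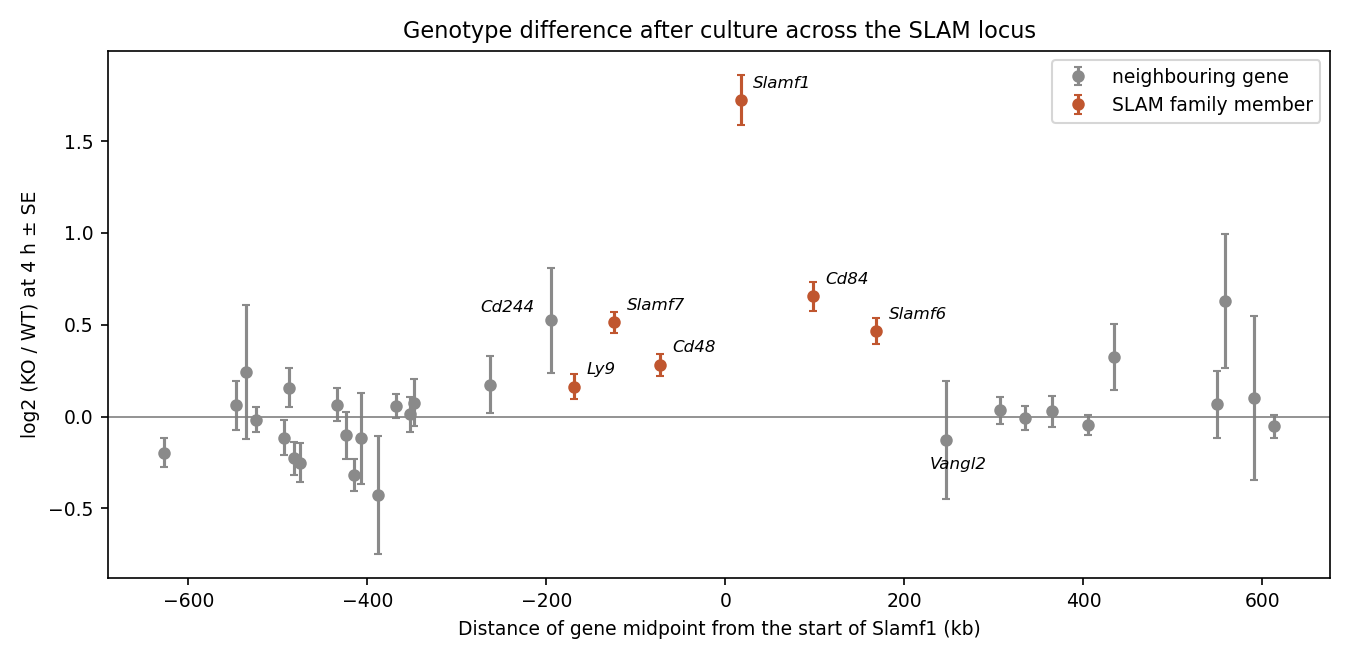
Log2 difference between KO and WT at 4 h (y axis, bars of 1 SE) of the 6 SLAM family genes (orange) and of the 28 tested genes within 500 kb of the cluster (grey), against the distance of each gene's midpoint from the start of Slamf1 (x axis, kb). The 6 members lie above 0, from 0.16 for Ly9 to 1.72 for Slamf1, and the neighbours scatter on both sides of 0 from -0.43 to 0.63.

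Genes known to act with SLAM receptors were followed as a list of 31 symbols, of which 29 had a row and 23 were tested at 4 h. The list was chosen with earlier results of these data known, so its counts and p-values are given as descriptions. At 4 h, 8 of them were called, 5 higher and 3 lower in KO, where 5.67% of all genes were called higher in KO and 5.22% lower. At 0 h, 0 of 24 tested were called by edgeR or by DESeq2, beside 0.987% of all genes called by edgeR. Of these 24, 4 had an unadjusted p under 0.05. Over culture 13 of 24 were called in WT, 3 raised and 10 lowered, beside 33.1% of all genes, and 11 in KO, 1 raised and 10 lowered, beside 23.3%. For the interaction 5 of 24 were called, 3 positive and 2 negative, beside 6.39% of all genes. The median log2 difference of the list at 4 h was -0.02. Without KO 4 h replicate 3 the count at 4 h was 5.

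The adaptors that couple SLAM receptors to kinases were barely counted. *Sh2d1a*, the gene of SAP, had no row at 0 h and 15 reads over the 3 WT and 6 over the 3 KO libraries at 4 h. *Sh2d1b1*, the gene of EAT-2, had 16 and 13 reads at 0 h and no row at 4 h, and *Sh2d1b2* had no row. No row of the tables held fewer than 10 reads in sum, so *Sh2d1a* and *Sh2d1b1* were below that cutoff at the time without a row. *Sh2d1b2* may be below it too, or may be missing because the tables lack that symbol. None of the adaptors was tested. *Cd2*, a CD48 ligand, fell over culture in WT by 0.85 ± 0.08 on the log2 scale (edgeR adjusted p = 1.78e-08) and in KO by 0.64 ± 0.08 (adjusted p = 2.27e-06), and its difference of 0.14 ± 0.08 at 4 h was not called (adjusted p = 0.352). *Slamf9* was at 111 reads over the libraries of fresh WT, 43 in fresh KO, 21 in cultured WT and 19 in cultured KO, and fell over culture in WT by 2.00 ± 0.41 (adjusted p = 0.000676). Its change in KO was -1.25 ± 0.46 (edgeR adjusted p = 0.0558) and its interaction 0.75 ± 0.65 (edgeR adjusted p = 0.626), and neither was called. *Slamf8* was at 12 and 2 reads at 0 h and had no row at 4 h. Of 11 macrophage and monocyte markers, 5 had a row in both tables and summed to 52.7 to 59.0 CPM at 0 h and 25.6 to 46.5 at 4 h, while *C1qa*, *C1qb*, *C1qc*, *Cd14* and *Fcgr1* had a row at 0 h alone. The sums were lower after culture, as was *Slamf9*, and their part in its change was not tested.

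Among the kinases and phosphatases that act on SLAM tails, 5 of 9 were called at 4 h, beside 10.9% of all genes, and the phosphatases parted. *Inpp5d*, which encodes the lipid phosphatase SHIP-1, was at 219.3, 222.5 and 194.5 CPM in fresh WT, 231.7, 232.7 and 238.4 in fresh KO, 475.9, 463.5 and 481.9 in cultured WT, and 238.5, 256.3 and 253.5 in cultured KO. The cultured WT libraries stood apart from all others. The gene rose over culture in WT by 1.16 ± 0.06 (edgeR adjusted p = 8.40e-13), its change in KO was 0.09 ± 0.06 (adjusted p = 0.284), and the 2 changes differed by -1.07 ± 0.08 (adjusted p = 1.04e-08).

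*Ptpn6*, which encodes the tyrosine phosphatase SHP-1, went the other way. It was at 621.8, 611.4 and 615.5 CPM in fresh WT, 629.2, 615.6 and 627.7 in fresh KO, 168.8, 185.5 and 197.2 in cultured WT, and 317.9, 303.1 and 277.2 in cultured KO. Both genotypes fell well below their 0 h levels and WT fell further, by 1.74 ± 0.06 on the log2 scale (edgeR adjusted p = 4.80e-15), than KO, which fell by 1.06 ± 0.06 (adjusted p = 3.17e-11). The changes differed by 0.68 ± 0.08 (adjusted p = 1.14e-05). *Ptpn11*, which encodes SHP-2, differed by -0.04 ± 0.07 at 4 h (adjusted p = 0.791).

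*Fyn*, the Src family kinase that SAP recruits, was at 45.1, 47.9 and 47.1 CPM in fresh WT, 45.6, 47.5 and 43.9 in fresh KO, 91.4, 86.0 and 95.6 in cultured WT, and 47.9, 49.9 and 47.1 in cultured KO. As for *Inpp5d*, the cultured WT libraries were the high ones. The interaction was -0.88 ± 0.11 (edgeR adjusted p = 7.52e-06). *Lck*, a Src family kinase best known from T cells, was at 18.5, 23.5 and 24.4 CPM in fresh WT, 24.8, 23.5 and 27.5 in fresh KO, 15.5, 11.6 and 16.2 in cultured WT, and 20.0, 20.9 and 26.3 in cultured KO. The groups did not overlap at 4 h, at a log2 difference of 0.62 ± 0.15 (adjusted p = 0.0158), a call lost without KO 4 h replicate 3, and its interaction of 0.43 ± 0.21 was not called (adjusted p = 0.295). T cell markers summed to 7.26 to 17.6 CPM in cultured WT and 5.40 to 14.8 in cultured KO, ranges that overlapped. *Fgr*, a further Src family kinase, was higher in KO by 0.62 ± 0.16 (adjusted p = 0.0225), whereas *Lyn*, a main Src family kinase of B cells, differed by -0.12 ± 0.06 (adjusted p = 0.211).

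Of 12 tested signaling genes further downstream, 3 were called at 4 h, beside 10.9% of all genes. *Plcg2*, the phospholipase of B cell receptor signaling, was higher in KO by 0.41 ± 0.07 on the log2 scale (edgeR adjusted p = 0.000578), and *Sh3bp2*, an adaptor, by 0.32 ± 0.08 (adjusted p = 0.0137). *Uvrag*, part of the lipid kinase complex that some SLAM receptors bind in phagocytes, was lower by 0.35 ± 0.07 (adjusted p = 0.0037). Of the other components of that complex, *Becn1* differed by -0.08 ± 0.11, *Pik3c3* by -0.02 ± 0.08 and *Pik3r4* by -0.06 ± 0.08, and none was called. Interactions were called for *Plcg2* (0.41 ± 0.09, adjusted p = 0.00435) and *Sh3bp2* (0.49 ± 0.11, adjusted p = 0.00823).

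**Figure D4:**
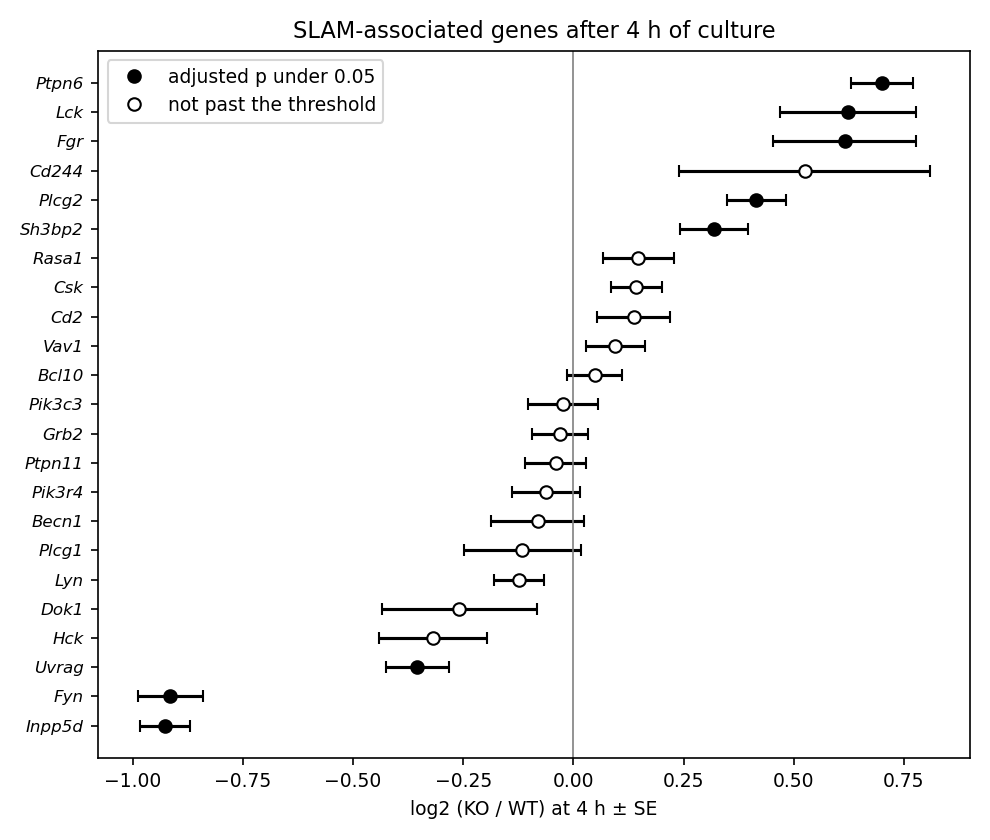
Log2 difference between KO and WT at 4 h (x axis, bars of 1 SE) of the 23 tested genes that act with SLAM receptors (y axis). Filled points passed an edgeR adjusted p of 0.05 over all genes tested and open points did not. Fyn and Inpp5d lie lowest, at -0.91 and -0.93, and Ptpn6 highest, at 0.70.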

How the data were processed

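RNA was taken from sorted splenic follicular B cells, and the authors deposited unnormalized counts of reads per gene, with the times in separate tables. They prepared libraries with NuGEN Ovation V2, KAPA Hyper prep and NEXTflex adapters, aligned single-end HiSeq reads to mm10 with STAR and counted them with HTSeq. Tool versions, gene annotation and strand setting were not given in the sources used here, so reads of overlapping and antisense genes cannot be separated. The tables held 13269 and 13142 genes, 12837 in both, each with a row sum of at least 10, and the number of columns that matched no sample was 0. Replicate libraries of a group differed by a chi-square per degree of freedom of 1.94 to 9.30, above sampling noise, and all 12 were kept.

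Counts were tested with edgeR 4.0.16 in R 4.3.3 (limma 3.58.1), with TMM factors, filterByExpr and the quasi-likelihood test, and p-values were adjusted by Benjamini-Hochberg over all genes tested, with calls at 0.05. Genotype was compared within each time over 6 libraries, and culture and the interaction over 12 libraries and the shared genes. The SE of a log2 difference was its absolute value divided by the square root of the F statistic of the edgeR test. Samples were grouped by the labels. The study used 3 adult mice per genotype, and the 0 h and 4 h libraries of a genotype may come from the same mice, but the labels do not tie a library to a mouse, and p-values then measure the spread between these libraries, which may be partly technical. CPM came from the fit of 12 libraries, and log2 CPM used a prior count of 2. The steps were checked on simulated counts.

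The 6 members and all lists were chosen with earlier results of these data known. Named were all members, any gene of the SLAM-associated list for its role (with values by library for the 4 called genes that differed most at 4 h), called neighbours of the locus and the 3 genes nearest to each member by RMS difference. *Cd244* was also named as the gene next to the cluster. Gene positions were found for 13475 of 13574 symbols. Promoters came from RefSeq. Alternatives were scaling by library totals or DESeq2 size factors, no filter, DESeq2 1.42.0, more or fewer groups in the fit, the replicate number as a block, and each library left out.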

Additional observations from a re-analysis of the deposited data

Results flagged for a closer look

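The changes over culture differed between genotypes, by the interaction term of the edgeR fit, for 4 of the 6 members. They also did for 5 of 24 tested SLAM-associated genes and 1 of 30 tested locus neighbours. Of all genes tested 6.39% were called. Genes named as markers or by RMS difference are not covered here. As the change in KO minus the change in WT on the log2 scale, the differences of the members were 1.69 for *Slamf1*, 0.67 for *Cd84*, 0.53 for *Slamf7* and 0.37 for *Slamf6*, given as descriptions because the members were selected on these levels. Among genes that act with SLAM receptors they were 0.68 for *Ptpn6*, 0.49 for *Sh3bp2*, 0.41 for *Plcg2*, -0.88 for *Fyn* and -1.07 for *Inpp5d*. Within 500 kb of the cluster the difference was 0.42 for *Pex19*, a call lost without 10 of the 12 libraries in turn. With 3 libraries per group, no group was examined for a library that stood apart.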

How the results depend on the processing

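The sign and call of the members' fold changes stayed as reported in 367 of 390 alternatives, with 11 calls lost, 2 gained and 10 signs turned, all at small differences. At 0 h the signs turned with library totals for *Slamf7* (0.0203), *Ly9* (0.003), *Cd84* (0.0261) and *Fyn* (0.0046). They also turned with 1 library left out for *Slamf1* (-0.0276 to 0.1358, below 0 without KO 0 h replicate 2), *Slamf7* (-0.0399 to 0.0267, above 0 without KO 0 h replicate 3), *Ly9* (-0.0859 to 0.0681, above 0 without WT 0 h replicate 1), *Cd48* (-0.01 to 0.0561, below 0 without KO 0 h replicate 2), *Cd84* (-0.0595 to 0.0664, above 0 without WT 0 h replicate 2 or KO 0 h replicate 3) and *Fyn* (up to 0.0048, without KO 0 h replicate 3). In WT culture *Slamf7* turned to 0.029 with library totals. The KO culture call of *Ly9* was lost with library totals (-0.13), and that of *Slamf6* in WT was gained without WT 4 h replicate 2 (-0.19). Called neighbours at 4 h were 0 with the DESeq2 test and 0 with the replicate block, and for the interaction 0 with library totals, 0 with DESeq2 size factors and 0 with the DESeq2 test. The cause was not tested. Leaving out 1 library at a time gave 26 to 161 genes called at 0 h (50 without WT replicate 2, 59 without WT replicate 3, 26 without KO replicate 1 and 55 without KO replicate 3, against 112), 776 to 1361 at 4 h, 5 to 9 SLAM-associated genes at 4 h, and 0 to 3 neighbours at 4 h and 0 to 1 for the interaction. Members called ran from 3 to 5 for the interaction, 4 to 5 for each culture contrast, 5 to 5 at 4 h and 0 to 0 at 0 h. At 0 h 55 genes were called higher and 57 lower in KO, and 68 and 37 with library totals.

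Whether replicate numbers pair the libraries was undecided. Over genes, deviations of same-numbered 0 h and 4 h libraries correlated at 0.13, 0.08 and 0.12 in WT, against -0.10 to -0.003 for different numbers, and at -0.04, 0.15 and 0.15 in KO, against -0.18 to 0.05. Each library correlated best with its own number except those of KO replicate 1, a hint from the data of a pairing that the labels do not give. Not every pair was over 0.1, so the numbers were treated as names. WT and KO of the same number correlated at -0.06 to 0.05 at 0 h and -0.10 to 0.07 at 4 h. With the replicate number as a block, 0, 5, 4, 6 and 4 members were called at 0 h, at 4 h, for culture in WT and in KO and for the interaction, and all genes called were 138, 1062, 3979, 2861 and 842. The fit with other groups does not apply to the interaction, which already uses all 4. *Slamf1* in WT 4 h rests on 58 to 90 reads a library, and *Sh2d1a*, *Sh2d1b1* and *Slamf8* are below what this depth can compare.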
